A study of Mus musculus with 7 samples.

Results

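Newly formed oligodendrocytes (NFOLs) of the posterolateral cortical amygdala (plCoA) were chosen by their UMIs (unique molecular identifiers, which count captured RNA molecules). Of 51115 nuclei with at least 1000 genes and at most 30000 UMIs, 429 were selected on 3 or more UMIs of Enpp6, Bmp4 and Gpr17 together, at most 2 of Pdgfra and Cspg4 together, and at most 1 of 4 neuronal transmitter genes together (Slc17a7, Slc17a6, Gad1 and Gad2). Comparison nuclei were 3119 precursors with 3 or more UMIs of Pdgfra and Cspg4 and 1107 mature oligodendrocytes with 4 or more of Mog and Mobp, all without Enpp6, held to the same neuronal limit and to at most 1 UMI of Col1a2, Col3a1 and Dcn, which are matrix genes of the meninges. Precursors also had fewer than 4 UMIs of Mog and Mobp together, and mature oligodendrocytes at most 2 of Pdgfra and Cspg4 together. The 429 had no limit on Mog and Mobp. The genes that chose these groups are given as a description and carry no test between stages. Those seen often enough stayed among the genes tested between domains. The nuclei came from male C57BL6J mice 8 weeks old, whose anterior (aplCoA) or posterior (pplCoA) domain was dissected, pooled over animals and sorted for nuclei after a short single housing with reduced sensory input, and the labels name no treatment or transgene in either group. Each domain had 3 biological replicates, of which aplCoA replicate 1 was sequenced as 2 libraries that were summed. Between 4191 and 10906 nuclei per library passed, and the median nucleus held 6367 UMIs. The animals shared a strain, a sex and an age, and each pool mixed several brains, so the spread between replicates is a spread between pools.

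Oligodendrocytes arise from oligodendrocyte precursor cells (OPCs), dividing glia that carry the growth factor receptor Pdgfra and the proteoglycan Cspg4. A precursor that stops dividing passes through a short premyelinating step, at which it extends many processes and switches on Enpp6, a choline phosphodiesterase, Bmp4, a secreted growth factor of the bone morphogenetic protein family, and Gpr17, a receptor linked to the timing of differentiation. Cells that contact an axon go on to wrap it and to make myelin proteins such as Mog and Mobp as mature oligodendrocytes (MOLs), and many premyelinating cells are known to die. In the adult cortex such cells are few and are read as a sign that new oligodendrocytes are still being made.

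The 3 marker genes did not mark 1 kind of nucleus. Of the 429 members, 143 had UMIs of Enpp6, Bmp4 and Gpr17, 82 of Enpp6 and Gpr17, 53 of Enpp6 alone, 35 of Enpp6 and Bmp4, 33 of Gpr17 alone, 7 of Bmp4 and Gpr17 and 76 of Bmp4 alone. Whether these nuclei were of the oligodendrocyte lineage was asked of Sox10, Olig1 and Olig2, transcription factors of the lineage that the choice did not use. At least 1 UMI of these was found in 335 members, or 78.1% (exact 95% binomial interval 73.9 to 81.9%), against 92.0% of 3119 OPCs, 74.4% of 1107 MOLs and 6.21% of 4555 microglia (5.53 to 6.95%), a cell type that should lack them. Median UMIs were 5314 in members, 4124 in OPCs, 3268 in MOLs and 3646 in microglia, so members were the deepest of these nuclei. Of the 429, 334 had a lineage UMI and at most 1 UMI of Col1a2, Col3a1 and Dcn together, and 95 did not.

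Those 95 nuclei were of 2 kinds. In 72 of them Bmp4 was the marker gene seen, and these held 1 UMI of Bcas1, a gene of premyelinating oligodendrocytes, among all their UMIs, or 2.57 CPM (counts scaled to 1000000 of the UMIs summed over a group of nuclei). The same 72 had Bnc2 at 4173 CPM, with a UMI in 98.6% of nuclei, Prdm6 at 1037 CPM, the cation channel Trpm3 at 16089 CPM and the transporter Slc47a1 at 1099 CPM, and 63 of them came from aplCoA against 9 from pplCoA. Of the matrix genes, Col1a2 was at 126 CPM in these 72 and Dcn at 87.5 CPM, with a UMI in 29.2 and 25.0% of nuclei. Lineage-marked nuclei, which the limit on these genes kept low, had 2.43 and 1.46 CPM. The other 23 had Enpp6 or Gpr17 and early oligodendrocyte genes, with Bcas1 at 2974 CPM, Frmd4a at 9769 CPM and Mbp at 2827 CPM, at a median of 3750 UMIs. Summed over nuclei, the 23 also stood above the lineage-marked nuclei in genes of the 72. Bnc2 was at 433 against 22.9 CPM and Trpm3 at 1473 against 154 CPM. A minority of the 23 carried these sums. A Bnc2 UMI was found in 13.0% of them against 1.5% of lineage-marked nuclei, and a Trpm3 UMI in 21.7% against 32.3%. The label was therefore not borne out for the 72 nuclei with Bmp4 alone, which are given no cell type name here. Per replicate they numbered 27, 14 and 22 in aplCoA and 4, 5 and 0 in pplCoA.

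**Figure D1:**
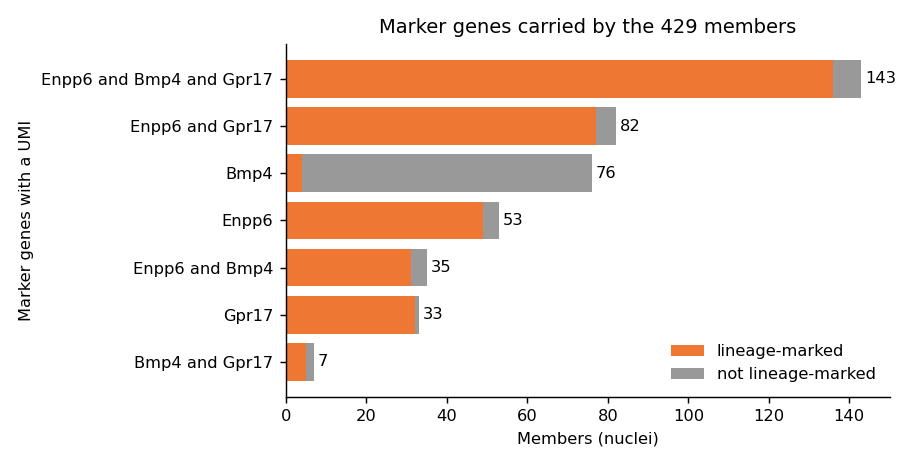
Members (nuclei, x axis) by the marker genes of which they held a UMI (y axis), with bars split into members with lineage support (Sox10, Olig1 or Olig2, and at most 1 matrix-gene UMI) and without it. Of the 76 members with Bmp4 alone 4 had lineage support, against 136 of the 143 with all marker genes. A lineage UMI was found in 6.21% of microglia, and whether the 4 with Bmp4 alone are of the lineage was not tested.

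The limit of 3 UMIs also cut a range rather than a gap. Just inside it were 96 members with 3 marker UMIs, of which 32 (33.3%) had a lineage UMI and 56 had Bmp4 alone. Just outside were 245 nuclei with 2 marker UMIs, of which 75 (30.6%) had a lineage UMI and 152 had Bmp4 alone. The results below are given for the 334 lineage-marked members, called NFOLs from here on, with the counts for all 429 beside them. They came as 53, 42 and 69 nuclei from aplCoA and 66, 49 and 55 from pplCoA. OPCs and MOLs were not held to a lineage UMI, which 92.0% and 74.4% of them had. The part of this unlike limit in the comparisons between stages was not tested. Of the 51115 nuclei, 631 had a barcode found in more than 1 library, 5 of them members.

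The chosen genes set the scale of the comparison. Over the 6 replicates Enpp6 lay at 1009 to 1189 CPM (median 1125) in NFOLs and was 0 by definition in both comparison groups. Gpr17, which was not used to choose OPCs or MOLs, lay at 92.9 to 142 CPM (median 121) in OPCs, 302 to 623 CPM (median 474) in newly formed oligodendrocytes and 4.81 to 12.1 CPM (median 7.77) in MOLs. Bmp4 lay at 0.298 to 7.17 CPM (median 2.23) in OPCs, 221 to 288 CPM (median 255) in newly formed oligodendrocytes and 0 to 3.30 CPM (median 0.371) in MOLs. Gpr17 was thus already present in OPCs, where 1151 of 3119 nuclei (36.9%) held a UMI, against 46 of 4555 microglia, whereas Bmp4 was near its level in microglia there (1.14 CPM). When nuclei were chosen by Enpp6 alone at 3 or more UMIs (271 nuclei), Gpr17 was found in 68.6% and Bmp4 in 59.0% of them, at 373 ± 69.7 and 282 ± 30.5 CPM (SD, n = 6 replicates). When nuclei were chosen by Gpr17 alone (152 nuclei), Enpp6 was found in 75.7% and Bmp4 in 57.2%. Each marker gene therefore also stood high in nuclei that another had chosen. Of the genes that bounded the choice, Pdgfra lay at 2.27 to 20.8 CPM (median 14.2) in NFOLs against 939 to 1236 CPM (median 1078) in OPCs, and Mog at 44.2 to 156 CPM (median 137) against 1048 to 1373 CPM (median 1218) in MOLs.

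The next question was how NFOLs stood between the stage before and the stage after. Counts were summed per stage and replicate and compared by the quasi-likelihood test of edgeR over 7711 genes, with the replicate as a term, and a gene was called at a Benjamini-Hochberg adjusted p under 0.01 and at least 1.5-fold. Against OPCs, 1189 genes were higher in NFOLs (15.4% of those tested) and 1646 lower (21.3%). Against MOLs, 1298 were higher (16.8%) and 1238 lower (16.1%). The step was not only a passage from one profile to the other, since 516 genes (6.69%) were higher in NFOLs than in both and 340 (4.41%) lower than in both. Over all 429 members and 7761 genes the counts were 1230 (15.8%) and 1439 (18.5%) against OPCs, 1376 (17.7%) and 1204 (15.5%) against MOLs, and 539 (6.94%) and 250 (3.22%) against both. Of the genes higher than both, 416 were called with either choice of members, and of those lower than both, 208. On the log2 scale the median over all genes tested was 0.0098 against OPCs and 0.0047 against MOLs, both held near 0 by the scaling (TMM).

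Early oligodendrocyte genes were higher in NFOLs than in either neighbour. The list held 20 genes linked to premyelinating cells, all were tested, and 20 were higher than in OPCs and 19 than in MOLs, 19 of them higher than in both, the same counts as with all members. Over all genes tested, 15.4% were higher than in OPCs, 16.8% than in MOLs and 6.69% than in both. The median log2 difference of the 20 listed genes was 3.31 against OPCs and 3.66 against MOLs. Because these genes were listed with earlier results of these data known, their direction is not independent evidence. Frmd4a, which encodes a scaffold protein of cell polarity, lay at 122 to 224 CPM (median 177) in OPCs, 9483 to 19449.9 CPM (median 13702) in newly formed oligodendrocytes and 209.7 to 324 CPM (median 223) in MOLs. Every replicate of NFOLs stood above every replicate of the other stages, with log2 differences of 6.27 ± 0.66 (SE) and 5.65 ± 0.61 and adjusted p of 1.59e-18 and 1.10e-17 (edgeR).

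Bcas1, whose protein marks premyelinating and early myelinating cells, lay at 377 to 546 CPM (median 485) in OPCs, 3993 to 5211 CPM (median 4684) in newly formed oligodendrocytes and 509 to 646 CPM (median 575) in MOLs. The groups did not overlap, and the log2 differences were 3.23 ± 0.36 and 2.85 ± 0.33. Fyn, a Src-family kinase that links axonal contact to process outgrowth and local Mbp synthesis, lay at 269 to 334 CPM (median 302) in OPCs, 3493 to 5034 CPM (median 3986) in newly formed oligodendrocytes and 91.5 to 129 CPM (median 116) in MOLs. It again stood apart in all 6 replicates, by 3.69 ± 0.39 and 4.97 ± 0.50. The long non-coding RNA 9630013A20Rik, which marks newly formed oligodendrocytes in published single-cell maps, lay at 58.2 to 90.7 CPM (median 69.5) in OPCs, 2359 to 5459 CPM (median 4554) in newly formed oligodendrocytes and 48.1 to 815 CPM (median 312) in MOLs. The other early genes named here differed in how far they stood from each neighbour. Kif19a, a kinesin (log2 5.34 ± 0.57 and 4.46 ± 0.52), and Cnksr3, a scaffold of kinase signalling (5.14 ± 0.61 and 3.52 ± 0.48), rose against both. Itpr2, a calcium channel of the endoplasmic reticulum that names the first committed cells, rose less from OPCs (1.71 ± 0.22) than its distance to MOLs (5.09 ± 0.52). Neu4, a sialidase, lay at 122 to 171 CPM (median 154) in OPCs, 247 to 422 CPM (median 347) in newly formed oligodendrocytes and 0 to 2.12 CPM (median 0) in MOLs. It was close to absent in MOLs, with 4 UMIs in all, so the fold is given from counts, and NFOLs were higher by a ratio of 358 (95% counting interval 139 to 1317), which like all such intervals here covers counting error only. Mycl, a relative of the Myc transcription factor, was higher than in OPCs by 3.58 ± 0.48 and had 2 UMIs in all MOLs.

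The plot of levels by stage sets these genes beside others. Some of the genes higher in NFOLs were rarely seen in the other stages. Epcam, an adhesion molecule known from epithelia, had 94 UMIs in NFOLs, 2 in OPCs and 0 in MOLs. A UMI of it was found in 69 of 334 NFOLs (20.7%) and in none of 1107 MOLs. It was higher than in OPCs by a ratio of 326 (95% counting interval 87.8 to 2731) and at least 65.3-fold higher than in MOLs, taking 3 UMIs over the group as the floor. In the 6 replicates it lay at 34.7 to 57.5 CPM (median 42.5), so all had it. Rassf10, a Ras-association protein, had 143 UMIs in NFOLs and 3 in each other stage, a ratio of 331 (95% counting interval 111 to 1622) to OPCs and of 99.3 (95% counting interval 33.3 to 487) to MOLs. Pde9a, a phosphodiesterase of cyclic GMP, lay at 2.87 to 8.74 CPM (median 5.00) in OPCs, 125 to 224 CPM (median 146) in newly formed oligodendrocytes and 0 to 7.71 CPM (median 4.32) in MOLs, log2 differences of 4.80 ± 0.56 and 5.11 ± 0.64.

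**Figure D2:**
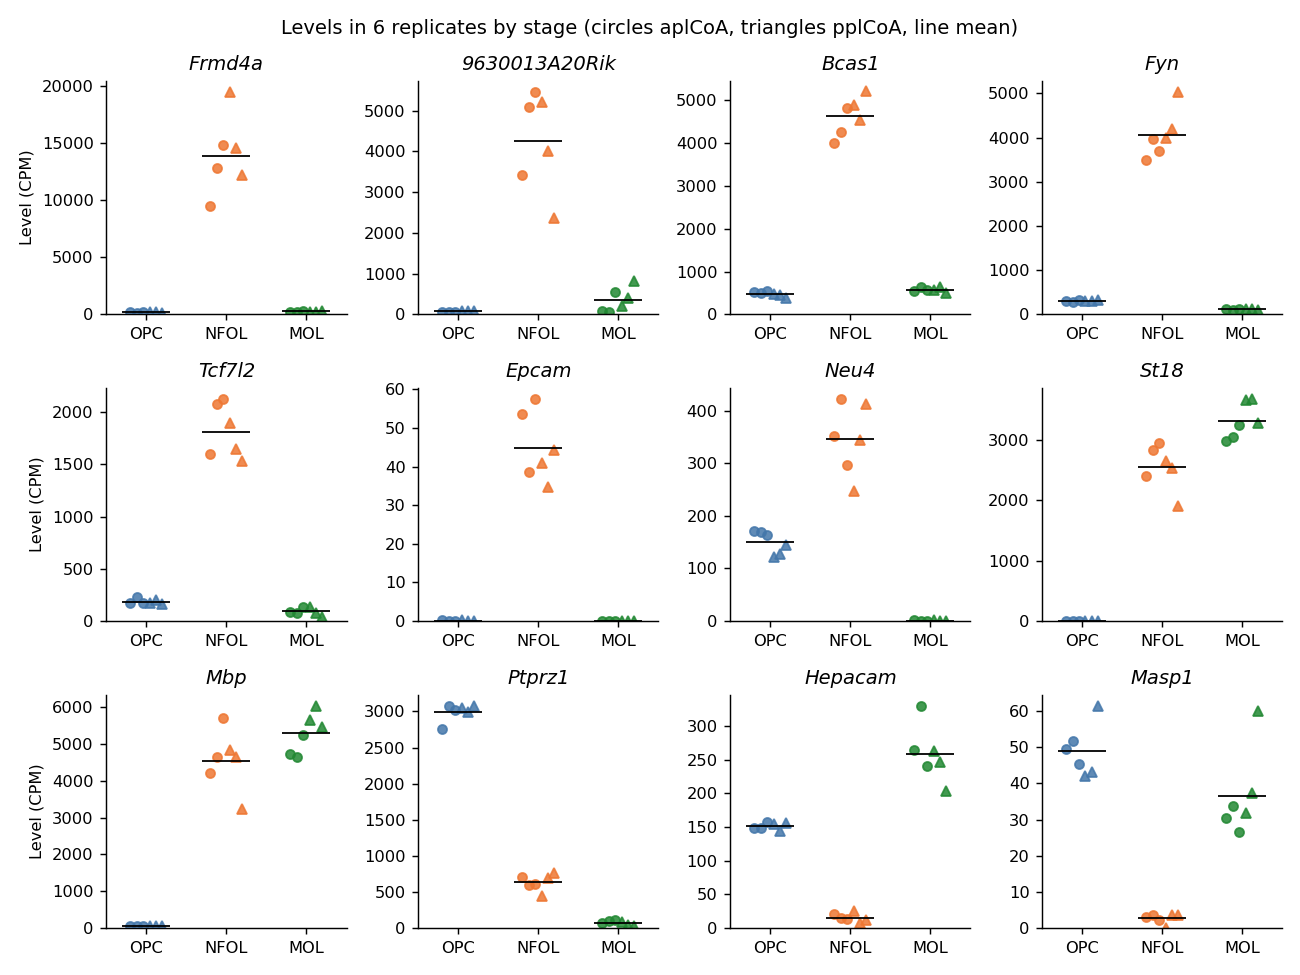
Level (CPM, y axis from 0) of 12 genes in OPCs, lineage-marked members (NFOL) and MOLs, with 1 point per replicate (circles aplCoA, triangles pplCoA) and a line at the mean of 6. Frmd4a, 9630013A20Rik, Bcas1, Fyn, Tcf7l2, Epcam and Neu4 stood highest in NFOLs, St18 and Mbp were high in NFOLs and MOLs, Ptprz1 fell from OPCs, and Hepacam and Masp1 were lowest in NFOLs.

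Many of the gene models that led the comparison lay inside genes that themselves rose. Of the 15 genes higher than in both stages by the largest margin, Gm13187 (chr2:4287595-4301167), Gm13175 (chr2:4458434-4466670) and Gm13179 (chr2:4586024-4587287) lie on the strand opposite Frmd4a (chr2:4017717-4614043, plus strand) and within its bounds, and Gm36988 (chr2:4316479-4318886) lies within it on the same strand. Positions are those of the GENCODE annotation on GRCm38 (mm10). Gm13187 lay at 744 to 2386 CPM (median 1460.5) in NFOLs against 2.87 to 9.96 CPM (median 6.55) in OPCs, and so moved with Frmd4a. Gm45600 (chr8:46994795-47014177) and 4930579M01Rik (chr8:47026805-47038177) lie antisense within Enpp6 (chr8:46986887-47096762, plus strand), a gene of the choice, so that their rise is not independent of it. They had 195 and 88 UMIs in NFOLs, none in OPCs, and 6 and 2 in MOLs. Gm50138 (chr17:31446490-31461835) lies antisense within Pde9a (chr17:31386210-31476310), and Gm35501 (chr9:122686799-122693642) overlaps Gm47136 (chr9:122687068-122714333) on the opposite strand. Counts of overlapping models that share introns are uncertain, and whether these are transcripts of their own was not tested. The remaining member of the 15 besides Frmd4a, Epcam, Rassf10, Pde9a and Kif19a was the long non-coding RNA 4932435O22Rik (chr11:114413401-114448860), at 14.7 to 49.2 CPM (median 35.4) in NFOLs and 0 to 2.21 CPM (median 0.875) in OPCs.

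With all 429 members, the same rule named Slc47a1, Gm6260, Cdh1, Gm26740, Hmcn1 and Abcb1a among the 15. In the 334 lineage-marked nuclei these had 30, 5, 3, 3, 12 and 3 UMIs, against 433, 254, 124, 247, 294 and 162 in the 95 others. Their place among the leading genes of the full set was thus held by the nuclei without lineage markers.

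OPC genes had mostly fallen. Of 20 listed, all tested, 17 were lower than in OPCs and 1 higher, with a median log2 difference of -1.60, and 17 were still higher than in MOLs and 1 lower, with a median of 2.88. Of the 20, 14 were called on both sides, lower than in OPCs and higher than in MOLs, as were 357 of all 7711 genes tested. The shares over all genes were 21.3% lower and 15.4% higher than in OPCs, and 16.8% higher and 16.1% lower than in MOLs. With all members the counts of the list were the same but for 2 lower than in MOLs. Megf11, a receptor of the MEGF family (log2 -2.90 ± 0.37 against OPCs and 2.87 ± 0.45 against MOLs), and Pcdh15, a protocadherin typical of OPCs (-2.88 ± 0.38 and 1.27 ± 0.25), showed this pattern. Ptprz1, a receptor phosphatase of immature glia, lay at 2761 to 3081 CPM (median 3037) in OPCs, 449 to 755 CPM (median 652) in newly formed oligodendrocytes and 29.9 to 107 CPM (median 73.4) in MOLs, in 3 separate ranges. Dcc, the netrin receptor, was the 1 listed gene lower than in MOLs as well (-2.63 ± 0.32 and -0.73 ± 0.17).

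Other OPC genes stood far above MOLs, whether or not they had fallen. Tnr, which encodes the matrix protein tenascin-R, was the 1 listed gene higher than in OPCs, at 3073 to 3399 CPM (median 3309) in OPCs, 7302 to 10385 CPM (median 8302) in newly formed oligodendrocytes and 37.1 to 59.9 CPM (median 50.7) in MOLs. Sox6, a transcription factor that restrains maturation, lay at 1728 to 2092 CPM (median 1978) in OPCs, 2107 to 3096 CPM (median 2349.9) in newly formed oligodendrocytes and 5.99 to 31.9 CPM (median 21.5) in MOLs, a difference from OPCs of 0.28 ± 0.12 that was not called, and one from MOLs of 6.55 ± 0.67. Vcan, the matrix proteoglycan versican, had fallen little (-0.65 ± 0.14) and was far above MOLs (6.32 ± 0.70). Cacng4, an auxiliary subunit of AMPA receptors, had fallen by more (-2.59 ± 0.34) but with 10 UMIs in MOLs remained higher there by a ratio of 45.6 (95% counting interval 24.4 to 96.5).

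Myelin genes were on, but not all of them. Of 26 listed, 24 were tested, 16 were higher than in OPCs and none lower, and 20 were lower than in MOLs and none higher, where 15.4% of all genes tested were higher than in OPCs and 16.1% lower than in MOLs. The median log2 differences were 1.78 and -3.65. With all members 17 were higher than in OPCs and 23 lower than in MOLs. Mbp, which encodes myelin basic protein, lay at 39.4 to 57.5 CPM (median 50.2) in OPCs, 3236 to 5707 CPM (median 4648) in newly formed oligodendrocytes and 4659 to 6044 CPM (median 5352) in MOLs. It differed from OPCs by 6.45 ± 0.65 and from MOLs by -0.38 ± 0.14, the latter not called here but called lower in 18 of 30 alternatives, down to -1.09. Most of these alternatives, here and below, also take all 429 members or another choice of members. Mag, the myelin-associated glycoprotein (log2 6.36 ± 0.71 and -1.25 ± 0.23), and Cldn11, the tight junction protein of myelin (5.63 ± 0.63 and -1.24 ± 0.22), were far above OPCs and short of MOLs.

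A second set of mature genes was far below its MOL level. Mal, a lipid-raft protein of compact myelin, lay at 2.58 to 16.0 CPM (median 6.52) in OPCs, 0 to 26.8 CPM (median 23.0) in newly formed oligodendrocytes and 641 to 1356 CPM (median 1085) in MOLs, which was -5.84 ± 0.70 against MOLs and, against OPCs, 1.17 ± 0.47, not called. Ermn, a cytoskeletal protein of late oligodendrocytes, lay at 0 to 4.77 CPM (median 2.34) in OPCs, 0 to 26.8 CPM (median 9.74) in newly formed oligodendrocytes and 299 to 412 CPM (median 349) in MOLs, and Aspa, aspartoacylase, at 4.65 to 37.3 CPM (median 8.12) in OPCs, 0 to 77.4 CPM (median 38.9) in newly formed oligodendrocytes and 937 to 1314 CPM (median 1095) in MOLs. Both were called higher than in OPCs, by 2.17 ± 0.63 and 1.68 ± 0.47, and lower than in MOLs, by -5.00 ± 0.63 and -5.02 ± 0.65. Il33, a cytokine of mature oligodendrocytes, had 6 UMIs in NFOLs, was not called against OPCs and was lower than in MOLs by a ratio of 76.5 (95% counting interval 35.0 to 209). The listed genes therefore stood at unlike distances from the MOL level, with Mbp nearer to it than Mal, Ermn and Il33.

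Transcription factors of the lineage were called in both directions. Of 26 listed, 21 were tested outside the genes used to mark the lineage, with 12 higher and 7 lower than in OPCs, and 9 higher and 4 lower than in MOLs. With all members and 24 tested these were 12, 8, 11 and 4. Of all genes tested 15.4 and 21.3% were higher and lower than in OPCs and 16.8 and 16.1% than in MOLs, and the 4 lower than in MOLs were near that share. St18, a zinc finger factor of differentiation, lay at 4.30 to 7.23 CPM (median 6.32) in OPCs, 1905 to 2941 CPM (median 2592) in newly formed oligodendrocytes and 2981 to 3673 CPM (median 3262) in MOLs, and Myrf, which drives the myelin programme, at 4.30 to 14.4 CPM (median 11.7) in OPCs, 89.3 to 181 CPM (median 139) in newly formed oligodendrocytes and 126 to 149 CPM (median 139) in MOLs. Both had log2 differences from OPCs that were called (8.60 ± 0.83 and 3.56 ± 0.44), and neither was called against MOLs (-0.54 ± 0.14 and -0.13 ± 0.15), though St18 was in 21 of 30 alternatives. Tcf7l2, a WNT effector that is high in cells about to myelinate, peaked instead, at 163 to 234 CPM (median 174) in OPCs, 1533 to 2127 CPM (median 1769.8) in newly formed oligodendrocytes and 41.9 to 135 CPM (median 84.7) in MOLs. Sox4, which is shut off before terminal differentiation, was higher than in both (log2 1.64 ± 0.22 and 4.32 ± 0.48), as was Nkx2-2, a homeodomain factor of commitment (1.51 ± 0.22 and 2.88 ± 0.37). Sox5, a partner of Sox6, had fallen by contrast (-1.45 ± 0.24 and 3.42 ± 0.44). The Notch target Hes5 lay at 75.1 to 170.1 CPM (median 121) in OPCs, 0 to 20.8 CPM (median 7.80) in newly formed oligodendrocytes and 0 to 13.2 CPM (median 8.78) in MOLs. The factors that chose the lineage-marked nuclei are given without a test. Sox10 lay at 288 to 352 CPM (median 327) in OPCs, 339.9 to 538 CPM (median 478) in newly formed oligodendrocytes and 215 to 321 CPM (median 245) in MOLs, and Olig2 at 186 to 267 CPM (median 224) in OPCs, 143 to 176 CPM (median 165) in newly formed oligodendrocytes and 24.0 to 67.6 CPM (median 42.9) in MOLs.

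Bmp4 is itself a ligand, and its pathway is known to hold OPCs back from differentiation. Of 23 other pathway genes, 10 were tested, 1 was higher and 4 lower than in OPCs, and 1 was higher and 1 lower than in MOLs. With all 429 members the balance turned, with 12 tested, 3 higher and 2 lower than in OPCs, and 5 higher and 1 lower than in MOLs. Among ligands, Bmp7 had 5 UMIs in NFOLs and was lower than in OPCs by a ratio of 20.8 (95% counting interval 8.86 to 64.1), a call made in 12 of 30 alternatives. Among secreted modulators Bmper lay at 47.3 to 70.3 CPM (median 58.8) in OPCs, 3.47 to 9.07 CPM (median 4.14) in newly formed oligodendrocytes and 0 to 5.99 CPM (median 4.0) in MOLs. Smad1, which carries the signal to the nucleus, did not pass against OPCs (0.29 ± 0.16) and was higher than in MOLs (0.64 ± 0.21). Smad7, the inhibitory Smad, was higher than in OPCs (2.93 ± 0.43) and lower than in MOLs (-1.37 ± 0.27), at 51.6 to 205 CPM (median 157) in NFOLs. The target gene Id2 was lower than in OPCs (-3.38 ± 0.59), and its difference from MOLs did not pass (-1.59 ± 0.59). The WNT pathway, which also times differentiation, gave 3 higher and 4 lower than in OPCs and 5 higher and 3 lower than in MOLs, of 15 tested (all members, 3, 4, 7 and 3). Of all genes tested, 15.4% were higher and 21.3% lower than in OPCs and 16.8% and 16.1% than in MOLs, and both lists are short. Next to Tcf7l2, the repressor Tcf7l1 was higher than in both (1.86 ± 0.26 and 2.57 ± 0.35). The co-receptor Lrp5 was lower than in OPCs (-1.71 ± 0.37) and had 7 UMIs in MOLs. Daam2, a formin that dampens maturation, lay between the stages (1.87 ± 0.40 and -2.91 ± 0.41), and in 1 NFOL replicate it had no UMI.

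Genes of electrical signalling were mostly lower than in OPCs. OPCs are known to receive synapses and to carry voltage-gated channels. Of 32 listed genes, 30 were tested and 17 were lower than in OPCs and 3 higher, with a median log2 difference of -0.93, whereas 13 were higher and 5 lower than in MOLs. With all members 20 were lower and 2 higher than in OPCs, and 13 and 5 stood against MOLs as before. Of all genes tested 21.3% were lower and 15.4% higher than in OPCs, and 16.8% higher and 16.1% lower than in MOLs, so the 5 lower than in MOLs were near that share and the 3 higher than in OPCs below it. Kcnd2, an A-type potassium channel, lay at 3644 to 4544 CPM (median 4119) in OPCs, 236 to 499.9 CPM (median 437) in newly formed oligodendrocytes and 44.0 to 269.5 CPM (median 146) in MOLs. Its relative Kcnd3 (log2 -2.67 ± 0.33), the kainate receptor Grik1 (-3.46 ± 0.53) and the sodium channel Scn1a (-2.62 ± 0.39) were lower than in OPCs as well. Some receptors were high against MOLs and not called against OPCs. Grik3, a kainate receptor, and Gria2, an AMPA receptor subunit, differed from OPCs by -0.57 ± 0.17 and 0.39 ± 0.13, neither called, and from MOLs by 4.59 ± 0.62 and 3.06 ± 0.36. Grik3 was called lower than in OPCs in 20 of 30 alternatives, down to -1.28. The potassium channel Kcna1 and the metabotropic receptor Grm3 differed from MOLs by -3.85 ± 0.50 and -3.65 ± 0.48 on the log2 scale, and neither was called against OPCs (Kcna1 was in 15 of 30 alternatives).

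Next came the genes by which a process meets an axon and those that shape its skeleton. Of 18 listed genes of axonal adhesion, 17 were tested, 7 were higher and 3 lower than in OPCs, and 9 were higher and 4 lower than in MOLs (all members, 6, 4, 9 and 5). The shares over all genes tested were 15.4 and 21.3% against OPCs and 16.8 and 16.1% against MOLs, so the lower counts of this list were near them. Nfasc, whose glial form anchors the loops of myelin, lay at 152 to 164 CPM (median 158) in OPCs, 3306 to 4658 CPM (median 4282) in newly formed oligodendrocytes and 733 to 1272 CPM (median 1144) in MOLs. Tmem108, a membrane protein known from neurons, rose against both (3.49 ± 0.38 and 4.74 ± 0.50), and so did the adhesion molecule Cadm2 (1.02 ± 0.17 and 2.52 ± 0.30). Nrcam passed against MOLs only (2.80 ± 0.35, with 0.49 ± 0.14 against OPCs). Cntn2, a contactin of the juxtaparanode, was lower than in MOLs (-4.59 ± 0.58). Of 24 regulators of actin and small GTPases, 23 were tested, 13 were higher and none lower than in OPCs, and 9 were higher and 4 lower than in MOLs (all members, 14, none, 9 and 4). Beside Fyn, these included the small GTPase Rras2 (3.40 ± 0.42 and 3.33 ± 0.44), the GTPase Rnd2 (3.14 ± 0.40 and 4.04 ± 0.54), the GTPase-activating protein Arhgap35 (1.70 ± 0.23 and 3.19 ± 0.36), which acts with Fyn, and the tubulin deacetylase Sirt2, at 136 to 201 CPM (median 168) in OPCs, 1412 to 1709 CPM (median 1596) in newly formed oligodendrocytes and 216 to 309 CPM (median 266) in MOLs. Plekha1, an adaptor for membrane phosphoinositides, was instead highest in MOLs (3.28 ± 0.41 and -0.75 ± 0.19).

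Genes of lipid synthesis were in part up. Of 28 genes of cholesterol and myelin lipid synthesis, 21 were tested, 11 were higher than in OPCs and none lower, and 2 were higher and 9 lower than in MOLs (all members, with 22 tested, 14, none, 2 and 9). Beside this, 15.4% of all genes tested were higher than in OPCs, and 16.8% higher and 16.1% lower than in MOLs, so the 2 higher than in MOLs were below that share. Elovl7, an elongase of fatty acids, lay at 12.4 to 18.6 CPM (median 16.1) in OPCs, 276 to 589 CPM (median 351) in newly formed oligodendrocytes and 204 to 304 CPM (median 269) in MOLs, with 0.40 ± 0.13 against MOLs, not called. Fa2h, which hydroxylates the fatty acids of myelin galactolipids, lay at 74.2 to 93.5 CPM (median 85.2) in OPCs, 413 to 461 CPM (median 424) in newly formed oligodendrocytes and 485 to 743 CPM (median 604) in MOLs, and Ugt8a, which makes galactosylceramide, at 80.6 to 117 CPM (median 91.1) in OPCs, 195 to 440.4 CPM (median 343) in newly formed oligodendrocytes and 563 to 805 CPM (median 729) in MOLs, both between the stages. Cers2, the ceramide synthase of very long chains, was near its OPC level (0.10 ± 0.29) and low against MOLs (-2.61 ± 0.39), and the lipid transporter Abca2 lay between (1.58 ± 0.33 and -1.80 ± 0.31). Insig1, a sterol sensor, did not pass against OPCs (1.00 ± 0.37, called in 23 of 30 alternatives) and was lower than in MOLs (-1.67 ± 0.36).

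Of 22 cell cycle genes only 3 were seen often enough to be tested. The G1 cyclin Ccnd1 lay at 81.9 to 139 CPM (median 122) in OPCs, 9.07 to 20.7 CPM (median 14.0) in newly formed oligodendrocytes and 6.61 to 16.9 CPM (median 11.3) in MOLs, and its difference from OPCs of -3.04 ± 0.41 was called. Cdkn1b, the inhibitor p27, and the cyclin Ccnd3 were lower than in MOLs (-0.93 ± 0.29 and -2.40 ± 0.42), and neither passed against OPCs (-0.01 ± 0.25 and -0.46 ± 0.33). With all 429 members the difference of Ccnd3 from OPCs turned to 1.03 and was called. Among 7 tested genes of cell survival, Bcl2, which blocks apoptosis, had 7 UMIs in NFOLs and was lower than in OPCs by a ratio of 24.1 (95% counting interval 11.7 to 60.1) and than in MOLs by 4.11 (95% counting interval 1.88 to 10.7), the latter called in 12 of 30 alternatives. Tfeb, a lysosomal regulator known to promote the death of premyelinating cells, rose from OPCs (2.55 ± 0.32), and its difference from MOLs did not pass (0.37 ± 0.15). Trp53 was higher than in OPCs (0.87 ± 0.25), and Bcl2l1, a relative of Bcl2, was lower than in MOLs (-2.64 ± 0.32). In all, 3 of the 7 were higher and 1 lower than in OPCs (all members, 4 and 1), where 15.4 and 21.3% of all genes tested were.

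Genes lower in NFOLs than in both other stages were led by Adam19, Gm29502, Masp1, Hepacam and Samd4. Hepacam, a glial adhesion molecule, lay at 144 to 157 CPM (median 152) in OPCs, 6.94 to 24.9 CPM (median 13.9) in newly formed oligodendrocytes and 204 to 331 CPM (median 255) in MOLs, with log2 differences of -3.29 ± 0.42 and -4.17 ± 0.49. Samd4, an RNA-binding repressor of translation, lay at 196 to 274 CPM (median 217) in OPCs, 14.1 to 41.6 CPM (median 23.7) in newly formed oligodendrocytes and 210.4 to 314 CPM (median 245) in MOLs. Masp1, a serine protease of the complement system, had 5 UMIs in NFOLs and was lower by a ratio of 19.8 (95% counting interval 8.42 to 61.0) against OPCs and 13.1 (95% counting interval 5.50 to 41.1) against MOLs. Adam19, a membrane metalloprotease, had 3 UMIs, a ratio of 17.1 (95% counting interval 5.79 to 83.1) and 39.5 (95% counting interval 13.4 to 193), and Gm29502, a long intergenic RNA, had 1. Against OPCs, Adam19 was called in 11 of 30 alternatives, at -5.18 to -0.21, and Samd4 in 22 of 30, at -3.33 to -0.25.

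Astrocyte and neuronal markers were lower in NFOLs than in OPCs. Over 6 astrocyte markers the summed level was 88.4 to 365 CPM per replicate in NFOLs, 813 to 938 CPM in OPCs and 120 to 791 CPM in MOLs. Of the 3 tested, 3 were lower than in OPCs, among them the glutamate transporters Slc1a3 (-3.05 ± 0.43) and Slc1a2 (-2.04 ± 0.43), and 1 lower than in MOLs, Slc1a3, a call made in 13 of 30 alternatives with the sign turned in 1 of them. Over 3 neuronal markers the range was 70.3 to 220 CPM in NFOLs, 387 to 609.6 CPM in OPCs and 240 to 443 CPM in MOLs, and both tested markers, Snap25 and Syt1, were lower than in either (-2.19 ± 0.31 and -1.58 ± 0.30 against OPCs). Against MOLs, Snap25 and Syt1 were called in 17 and 21 of 30 alternatives. Of all genes tested, 21.3% were lower than in OPCs and 16.1% lower than in MOLs, and both lists are short. The limit on neuronal transmitter genes is a count, and so stricter in deeper nuclei. Median UMIs were 5601 in NFOLs, 4124 in OPCs and 3268 in MOLs, and the part of this limit in the neuronal markers was not tested. For microglia the ranges were 42.2 to 104, 70.2 to 157 and 54.6 to 176 CPM, and the 1 tested marker, P2ry12, was lower than in OPCs (-0.87 ± 0.22) and did not pass against MOLs (0.49 ± 0.24). Over 3 endothelial markers the range reached higher in NFOLs, at 0 to 72.8 CPM from 30 UMIs, than in OPCs (3.87 to 22.2 CPM) or MOLs (0 to 7.42 CPM). Over 3 mural markers it was 0 to 5.95, 2.21 to 20.3 and 0 to 6.36 CPM, and over 4 meningeal markers, 3 of which bounded the choice, 2.27 to 14.1, 3.97 to 10.0 and 0 to 12.0 CPM. No endothelial, mural or meningeal marker was seen often enough to be tested. Of 7 mitochondrially encoded genes tested, 2 were lower than in OPCs (21.3% of all genes tested were) and 5 lower than in MOLs (16.1% were), including mt-Co1 (-0.61 ± 0.17 and -0.82 ± 0.20) and mt-Atp6 (-0.82 ± 0.26 and -0.89 ± 0.28, called in 21 and 15 of 30 alternatives). The part of free RNA in these differences was not tested.

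Single nuclei were described with the genes that separate the end stages. Of the genes called between MOLs and OPCs, 1962 were lower and 1489 higher in MOLs. They were called in the same OPCs and MOLs described here, so the distance between the end stages was set by that choice. The OPC side took a median of 45.1% of the UMIs of an OPC, 28.9% of an NFOL and 7.14% of a MOL, and the MOL side took 19.0, 30.6 and 58.9%. Microglia, which belong to neither, gave 19.0 and 19.7%, so the MOL side stood above that of an unrelated glial cell in NFOLs but not in OPCs. In the plot of nuclei by both shares, NFOLs filled the space between the end stages rather than a single point. Between the quartiles the OPC side ran from 23.3 to 34.4% and the MOL side from 22.3 to 39.5%. The 95 members without lineage markers lay at 22.4 and 26.9%, also between the end stages. A place between them is thus not by itself a sign of an intermediate stage. Gene by gene, NFOLs lay between the end stages for 63.4% of the genes higher in MOLs and for 60.5% of those lower. On a scale from 0 at OPCs to 1 at MOLs the median position was 0.378 for genes that rise and 0.584 for genes that fall, so genes lower in MOLs were the further along of the 2 sets, a difference that was not tested.

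**Figure D3:**
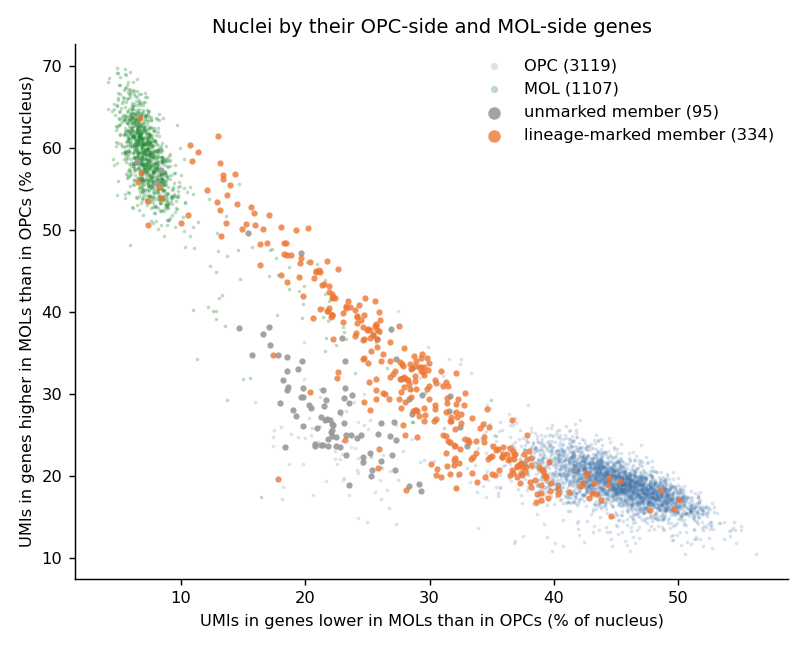
Each point is a nucleus, by the percent of its UMIs in genes lower in MOLs than in OPCs (x axis) and in genes higher in MOLs than in OPCs (y axis). OPCs gather at a median of 45.1 and 19.0%, MOLs at 7.14 and 58.9%, and lineage-marked members spread between them around 28.9 and 30.6%.

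NFOLs were next grouped by Gpr17 and Enpp6, which had helped to choose them. Of the 334, 37 held Gpr17 without Enpp6, 213 held both and 80 held Enpp6 without Gpr17, with median depths of 4871, 5718 and 5560.5 UMIs. The MOL side took 19.1, 29.3 and 41.0% over these groups, and the OPC side 40.3, 29.5 and 22.5%, so nuclei with Gpr17 and no Enpp6 were the nearest of the 3 groups to OPCs in these shares. Their MOL side was near that of OPCs (19.0%) and not above that of microglia (19.7%). Whether these 37 nuclei stand apart from OPCs was not tested. The groups were cut from the same nuclei that are described, so no test is given. The first was thin, with 9, 1 and 8 nuclei in aplCoA replicates 1 to 3 and 3, 8 and 8 in pplCoA replicates 1 to 3, while the last had 10 to 21 per replicate. Summed over nuclei and in this order, Ptprz1 was at 1955, 591 and 204 CPM, Pcdh15 at 2915, 483 and 149 CPM and Sox6 at 3059, 2677 and 1516 CPM. Each was lower in nuclei with Enpp6 and no Gpr17 than in those with Gpr17 and no Enpp6 in 6 of 6 replicates, as was Neu4, at 361, 402 and 155 CPM. Such counts, here and below, include replicates with as few as 1 nucleus in a group.

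In the other direction Frmd4a was at 402, 15023 and 18091 CPM, Tcf7l2 at 531, 1700.1 and 2752 CPM, Mbp at 954, 4463 and 6750.0 CPM and 9630013A20Rik at 1537, 3784 and 7327 CPM, each higher with Enpp6 and no Gpr17 in 6 of 6 replicates. Frmd4a was thus low in nuclei with Gpr17 and no Enpp6, although 1 replicate, pplCoA replicate 1, stood at 2511 CPM there in its 3 nuclei while the others ranged from 0 to 625 CPM. Bcas1 was highest in nuclei with both, at 2636, 5316 and 3772 CPM, and Fyn likewise, at 2626, 4630.4 and 3033 CPM. Bmp4 also peaked with both, at 41.3, 311 and 157 CPM, and Epcam at 5.16, 63.4 and 15.8 CPM.

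**Figure D4:**
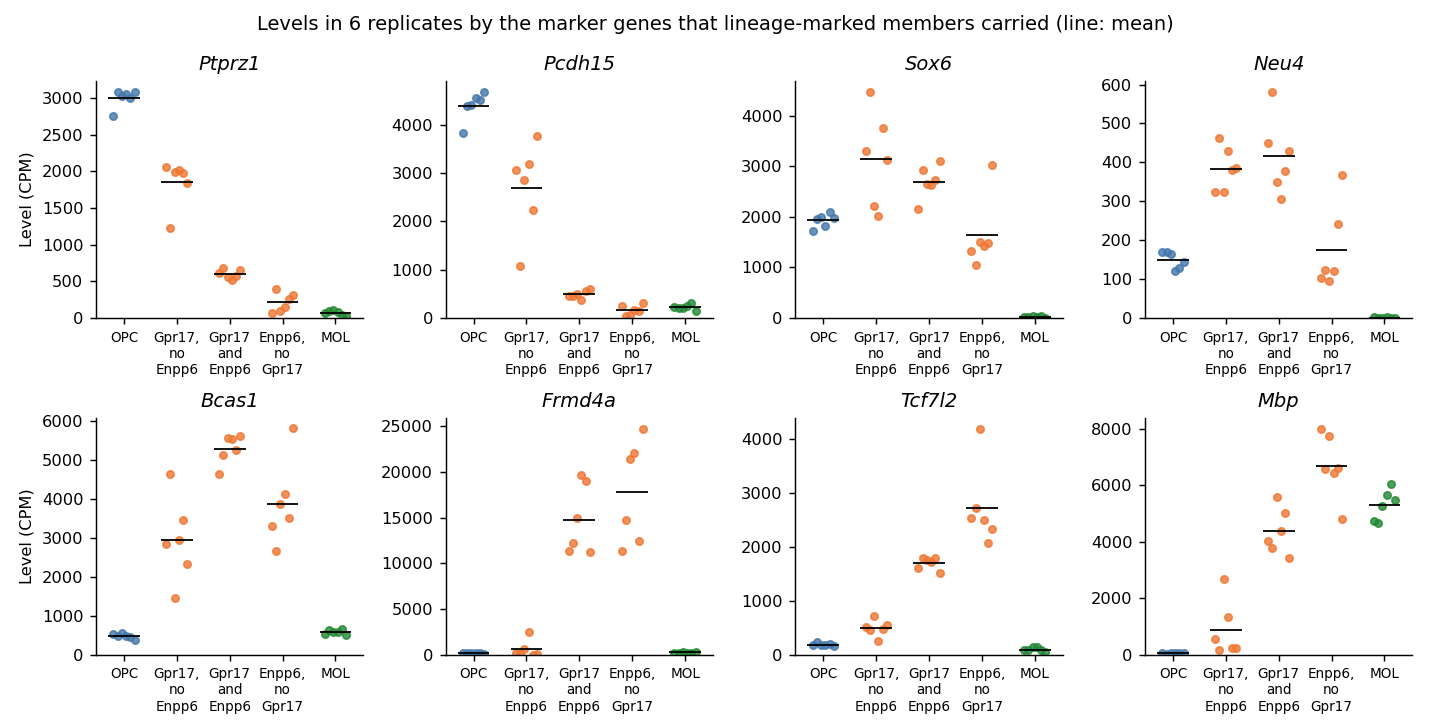
Level (CPM, y axis from 0) of 8 genes in OPCs, in lineage-marked members with Gpr17 and no Enpp6, with both genes and with Enpp6 and no Gpr17, and in MOLs, with 1 point per replicate and a line at the mean of 6. Ptprz1 steps down from left to right, Pcdh15 is lowest and Mbp highest in nuclei with Enpp6 and no Gpr17, and Bcas1, Frmd4a and Tcf7l2 stand above both end stages in nuclei with Enpp6.

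Mog and Mobp gave a second grouping of the members. By UMIs of Mog and Mobp together, 240 NFOLs had 0, 53 had 1 to 3 and 41 had 4 or more, at median depths of 5150, 6069 and 8174 UMIs, and the last group is a range of a count, not a type. Over these groups Gpr17 was at 562, 368 and 79.8 CPM, Bmp4 at 284, 351 and 37.0 CPM and Enpp6 at 1102, 1424 and 860.3 CPM. Since members needed 3 UMIs of these genes together, a member low in Gpr17 and Bmp4 had to hold Enpp6. Nothing is therefore read from the levels of these genes over the groups. As a description, Gpr17 and Bmp4 were lower at 4 or more UMIs than at 0 in 6 of 6 replicates, and Enpp6 in 4 of 6. The group with 4 or more UMIs held 7, 7 and 14 nuclei in aplCoA replicates 1 to 3 and 7, 5 and 1 in pplCoA replicates 1 to 3. Of the early genes, Bcas1 (5039, 5885 and 1854 CPM), Fyn (4524, 4390.1 and 1664 CPM) and Epcam (52.5, 62.3 and 2.85 CPM) were lower in the last group in 6 of 6 replicates, while 9630013A20Rik (3098, 4679 and 9195 CPM) and Tcf7l2 (1501, 2273 and 2698 CPM) were higher in 6 of 6. Sox6 was at 2943 CPM in the first group and 288 CPM in the last. Early genes thus differed in where they were highest. The share of NFOLs with 4 or more such UMIs was 13.2, 16.7 and 20.3% in aplCoA and 10.6, 10.2 and 1.82% in pplCoA, the last from 1 nucleus of 55.

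Between the domains, the share of members did not differ beyond the spread of replicates at the limit of 3 marker UMIs. All members made up 0.536 to 1.36% of nuclei in aplCoA and 0.784 to 1.05% in pplCoA, 0.947 ± 0.412 against 0.944 ± 0.141% (SD, n = 3 each), ranges that overlap (exact permutation test, two-sided, p = 1.0). Among OPCs, members and MOLs together they were 10.1 ± 2.20% in aplCoA and 9.10 ± 1.5% in pplCoA (exact permutation p = 0.5), and per 100 OPCs they numbered 17.1 ± 4.42 and 12.0 ± 1.23 (exact permutation p = 0.2). With 3 against 3 this test cannot give a p below 0.1. OPCs were 4.30, 6.39 and 5.40% of nuclei in aplCoA replicates 1 to 3 and 7.23, 7.54 and 8.86% in pplCoA, without overlap. The number per 100 OPCs therefore also moves with the number of OPCs. In lineage-marked members the share of the lineage turned, to 7.35 ± 2.15 against 8.21 ± 1.52% (exact permutation p = 0.6), and the number per 100 OPCs was 12.0 ± 3.98 against 10.7 ± 1.10 (exact permutation p = 0.7). At 2 or more marker UMIs the domains did not overlap in all members per 100 OPCs, at 29.0 ± 4.32 and 16.0 ± 1.38 (exact permutation p = 0.1). Their shares of nuclei overlapped there, at 1.04 to 2.08% in aplCoA and 1.04 to 1.46% in pplCoA. Lineage markers were missing from 37.6, 26.3 and 28.1% of members in aplCoA and from 13.2, 14.0 and 5.17% in pplCoA, without overlap, and this moves with the difference between the choices of members.

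**Figure D5:**
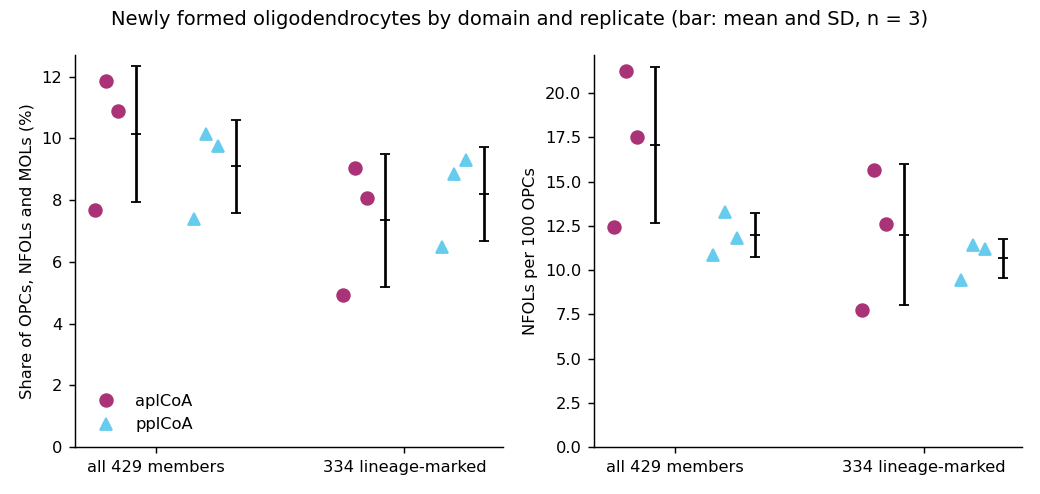
Left, members as a percent of OPCs, NFOLs and MOLs, and right, members per 100 OPCs (y axes from 0), in aplCoA (circles) and pplCoA (triangles), for all 429 members and the 334 lineage-marked ones, with the mean and SD of 3 replicates. The domains overlap in the lineage-marked members in both panels.

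Which genes were called between the domains turned on the choice of members. With all 429 members, 63 of 7543 genes tested (0.835%) were called between aplCoA and pplCoA, 53 higher in aplCoA and 10 lower. Of the 53, all were at least 4-fold higher in members without lineage markers than in those with them, whereas 7.12% of all genes tested were. Of the 10 lower genes, none was. Their median ratio of members without lineage markers to those with them was 0.237, against 1.03 over all genes tested. Prg4, a secreted proteoglycan and the gene with the lowest p, lay at 155, 214 and 129.7 CPM in aplCoA replicates 1 to 3 and 14.2, 15.6 and 3.54 CPM in pplCoA replicates 1 to 3 over all members, a log2 difference of 3.69 ± 0.69 (edgeR adjusted p = 0.000714). In lineage-marked members it had 3 UMIs in all. Gpc3, a heparan sulfate proteoglycan (3.99 ± 0.78), Sema3a, a repulsive guidance cue (2.74 ± 0.58), Tgfbr3, a co-receptor of TGF-beta (2.58 ± 0.55), Nudt4 (2.19 ± 0.48) and Gm26740 (3.01 ± 0.66) had 5, 15, 27, 25 and 3 UMIs in lineage-marked members and 163, 213, 277, 118 and 247 in the others. Ahnak, a large scaffold protein, had 71 UMIs in aplCoA and none in pplCoA, 69 of them in members without lineage markers. Slc38a2, an amino acid transporter (1.89 ± 0.40), and Nebl, an actin-binding protein of the nebulin family (1.87 ± 0.39), had 264 and 278 UMIs in lineage-marked members against 1096 and 571. The count changed when single replicates were left out. It was 18, 16 and 2 without aplCoA replicates 1, 2 and 3 and 14, 0 and 84 without pplCoA replicates 1, 2 and 3. Leaving a replicate out also leaves fewer samples, and the part of this was not tested.

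In lineage-marked members no gene was called between the domains, 0 of 7423 (0%), by edgeR's quasi-likelihood test, with 651 genes at an unadjusted p under 0.05, 0 called by DESeq2 and 7 by the likelihood ratio test. The replicates held 42 to 69 such nuclei. The lowest p fell to Gm45600, the antisense model within Enpp6, at 38.7, 66.8 and 46.0 CPM in aplCoA replicates 1 to 3 and 143, 166 and 118 CPM in pplCoA replicates 1 to 3, log2 -1.55 ± 0.34 (edgeR adjusted p = 0.0426). The domains did not overlap, but Enpp6 itself lay at 1009 to 1189 CPM (median 1125) over the 6 replicates. Kif26b, a kinesin, followed at 5.95, 3.52 and 4.60 CPM in aplCoA replicates 1 to 3 and 24.9, 41.6 and 47.9 CPM in pplCoA replicates 1 to 3 (edgeR adjusted p = 0.0463). Msmo1, an enzyme of cholesterol synthesis, lay at 167, 80.9 and 89.7 CPM in aplCoA replicates 1 to 3 and 20.4, 17.3 and 55.3 CPM in pplCoA replicates 1 to 3, log2 1.88 ± 0.44 (adjusted p = 0.0463). The protease Prss48 (-1.41 ± 0.34) and the respiratory chain subunit Ndufc2 (1.62 ± 0.40) had adjusted p of 0.0582 and 0.0592. None of these 5 passed the threshold in lineage-marked members. With all 429 members Gm45600 was among the 63 genes called (-1.93 ± 0.42, edgeR adjusted p = 0.00336), and it was called in 16 of 30 alternatives, Prss48 in 13, Msmo1 in 5 and Ndufc2 in 3 of 30, and Kif26b in 2 of 11.

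Whether the change from OPCs to NFOLs itself differed by domain was asked of the interaction of stage and domain. With all members 21 of 7761 genes (0.271%) passed at an adjusted p under 0.01. In lineage-marked members 0 passed by edgeR's quasi-likelihood test, with 356 at an unadjusted p under 0.05 and 1 each by DESeq2 and by the likelihood ratio test.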

How the data were processed

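Single-nucleus RNA-seq (10x, 3' chemistry) was analysed from 7 libraries. Per the labels, the authors aligned reads with Cell Ranger 5.0.0 to mm10, and introns were included, whereas the headers of all 7 matrices name Cell Ranger 4. The files the authors deposited hold unfiltered counts of UMIs per gene and barcode, with no normalization, 50812605 to 129624583 per library. Both libraries of aplCoA replicate 1 were summed, leaving 3 replicates per domain. No doublets were removed in the main analysis (scanpy 1.11.5 Scrublet scores as an alternative). The study's empty-droplet test and clustering were not repeated, and a minimum of 1000 genes took the place of the former, so differences from the study may come from this choice of nuclei.

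For each stage in each replicate UMIs were summed, genes with a UMI in under 10% of the nuclei of every compared group were dropped, and sums were scaled by TMM and compared in R 4.3.3 by edgeR 4.0.16 (quasi-likelihood, Benjamini-Hochberg), with the replicate as a block between stages, which share animals and library, and none between domains. SEs are those implied by the p-value. Shares were compared by exact permutation. DESeq2 1.42.0 and other alternatives are given in the closing section. The fits were tested on simulated data. Named genes were, per list, the 4 called genes with the largest change in each contrast, the 15 highest and 5 lowest against both stages, and the 10 (or 5) lowest p between domains. Some genes named by all 429 members alone are left out, and a few others are not reported here. The members, lists and rules were chosen with earlier results of these data known. That lineage-marked members lead the text was decided after the data were seen.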

Additional observations from a re-analysis of the deposited data

Results flagged for a closer look

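With all 429 members, the change from OPCs to NFOLs differed between aplCoA and pplCoA for 21 genes by the test of the interaction (edgeR, adjusted p under 0.01), 20 of them in the direction of a larger rise in aplCoA. All 20 were at least 4-fold higher in members without lineage markers than in those with them, against 6.04% of all genes tested. The lowest p fell to Nebl (log2 difference between the domains' changes 2.04), Fgfr1, a growth factor receptor (2.40), and Fbxl7, an F-box protein (2.66). Over all members Fbxl7 had 1722 UMIs, of which 1616 were in the 95 nuclei without lineage markers, 74 of which came from aplCoA and 21 from pplCoA. Fgfr1 had 149 of its 176 UMIs in these nuclei and Nebl 571 of 849. Without them, none of the 3 passed.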

How the results depend on the processing

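The alternatives limited to lineage-marked members were chosen after seeing the data, as were the other settings within them. Of 169 named stage differences that were called, over 100 genes, 165 kept their direction and 137 stayed called under every alternative run (up to 30), while 5 were called in fewer than 15 (Bmp7 and Adam19 against OPCs, and Grik1, Bcl2 and Slc1a3 against MOLs). Others were called in 15 to 23, among them Ermn, Samd4 and mt-Atp6 against OPCs and Smad1, Kcnd2, Ccnd3, Cdkn1b, mt-Atp6, Snap25 and Syt1 against MOLs. Of 31 given as not called, 18 were called in at least 1. Those called most often were Insig1 against OPCs (23 of 30), St18 against MOLs and Bcl2l1 against OPCs (21 each). With all members, genes called against OPCs numbered 2442 to 2702 when each replicate was left out in turn and 4016 without the filter on rare genes, those against MOLs 2293 to 2579, and those higher than both 483 to 548. Those lower than both numbered 195 to 266 with a replicate left out, 385 at 5 or more marker UMIs, 485 with OPCs and MOLs chosen by their marker genes alone and 402 without the filter. In lineage-marked members the same ranges were 2681 to 2861, 2296 to 2470, 485 to 543 and 261 to 319. No replicate block between the stages gave 2596 and 2507 genes against OPCs and MOLs with all members, and 2757 and 2462 with lineage-marked members. Members numbered 674 at 2 or more marker UMIs, and 333 to 372 with a replicate left out.

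The settings named next were run on all members or another choice of them, so beside lineage-marked members 2 choices changed at once, and the cause was not tested. At 2 or more marker UMIs, log2 differences were 0.30 for Bmp7 against OPCs, 1.31 for Bcl2 against MOLs and 0.17 for Slc1a3 against MOLs. Bcl2 was at 1.00 with doublets removed (-0.32 with all members), and Kcnd3 at -0.56 against MOLs with stages chosen by marker genes alone (1.44 with all members). Ccnd3 against OPCs (-0.46) was at 1.03 with all members, and on that choice at 0.94 by the likelihood ratio test, 0.99 with RLE scaling, 0.95 without the filter, 1.00 with edgeR's own filter, 1.03 with no replicate block, 0.75 to 1.14 with a replicate left out and 1.93 with doublets removed, and 1.68 at 2 or more marker UMIs. Within lineage-marked members it was at -0.46 by the likelihood ratio test, -0.47 with no replicate block and -0.71 to -0.27 with a replicate left out.

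The share of nuclei (aplCoA minus pplCoA, 0.00331 percentage points) was -0.110 at 5 or more marker UMIs, -0.193 without Bmp4, -0.0450 with doublets removed, -0.173 in lineage-marked members, -0.0257 with library 1 alone of aplCoA replicate 1, -0.145 thinned to 2500 UMIs, and -0.203 to 0.209 with a replicate left out (-0.203 without aplCoA replicate 2, -0.0768 without pplCoA replicate 1). The share of lineage nuclei (1.05 points) was -0.385 at 5 or more marker UMIs, -0.999 without Bmp4, -0.861 in lineage-marked members, -1.18 when thinned, and 0.188 to 2.29 with a replicate left out. At 2 or more marker UMIs both moved the other way, to 0.325 and 4.41 points (exact permutation p = 0.5 and 0.1, the latter the smallest possible). The number per 100 OPCs (5.10) kept its sign, at 3.01 to 7.41 with a replicate left out, but was 13.1 at 2 or more marker UMIs, 1.79 at 5 or more, 1.17 without Bmp4, 1.33 in lineage-marked members and 1.51 when thinned. The domains did not overlap at 2 or more marker UMIs (24.2 to 32.5 against 14.4 to 17.02 per 100 OPCs). Nor did they with library 2 alone of aplCoA replicate 1 (a difference of 5.77, 14.5 to 21.3 against 10.8 to 13.3). Both stood at an exact permutation p of 0.1, the smallest possible. The OPC share of nuclei, which was lower in every aplCoA replicate than in any of pplCoA, enters this number.

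The 63 genes called between domains were 326 at 2 or more marker UMIs, 1 at 5 or more, 0 without Bmp4, 139 with doublets removed, 138 with the study's limits on nuclei, 0 in lineage-marked members, 23 with library 1 alone, 121 by DESeq2, 342 by the likelihood ratio test, 99 with RLE scaling, 411 without the filter on rare genes, 35 with edgeR's own filter and 0 to 84 with a replicate left out. A replicate block left 4, but the numbers share no source in the labels and same-numbered samples deviated together by correlations of only 0.005, 0.089 and 0.040, so they were not taken as pairs. In lineage-marked members the counts were 7 by the likelihood ratio test and 0 to 2 with a replicate left out (1 without pplCoA replicate 1, 2 without pplCoA replicate 3).

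The 21 genes of the interaction were 39 at 2 or more marker UMIs, 1 at 5 or more, 0 without Bmp4, 65 with doublets removed, 0 in lineage-marked members, 11 with stages chosen by marker genes alone, 2 with library 1 and 7 with library 2 alone, 136 by the likelihood ratio test, 162 without the filter, 8 with edgeR's own filter and 0 to 8 with a replicate left out. In lineage-marked members they were 1 by DESeq2, 1 by the likelihood ratio test and 0 otherwise, also with each replicate left out. The interaction of Fbxl7 was -0.13 there, -0.079 by DESeq2, -0.075 by the likelihood ratio test and -0.77 to 0.82 with a replicate left out (-0.070, -0.54 and -0.27 among them).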
